A study of Mus musculus with 27 samples.

Results

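The 30 genes described here encode enzymes of cholesterol synthesis, their regulators, and enzymes of fatty acid synthesis. They were chosen by name and found by matching the Ensembl mouse identifiers of the count table to symbols: 30 of 51826 genes in the table. They comprise 17 sterol enzymes, 4 genes of regulation or transport (Insig1, Srebf1, Srebf2 and Stard4) and 9 fatty acid synthesis genes. All 30 passed the filter on low counts, which left 19119 genes for testing, and the lowest single value was 40 reads, for Idi1.

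RNA came from the whole heart of CD-1 pups aged 14 days, with 3 hearts in each of 9 groups. Propylthiouracil (PTU), which blocks thyroid hormone synthesis, was given at 0.15% in an iodine-deficient chow to the mothers from E13.5, so pups received it through the mother. Pups were injected daily from postnatal day 1 with phenoxybenzamine (PHE, 10 ug/g/day), which blocks alpha-adrenergic receptors, with propranolol (PRO, 20 ug/g/day), which blocks beta-adrenergic receptors, or with both. Libraries belong to 2 sequencing sets: set A holds all groups that received PHE (PHE, PTU+PHE, PHE+PRO and the triple treatment PTU+PHE+PRO) with their own saline group, and set B holds PTU, PRO and PTU+PRO with another. Each treated group was compared with the saline group of its own set. The litter of each heart is not given, and an effect of litter or of the iodine-deficient chow cannot be told apart from PTU.

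Cells make cholesterol from acetyl-CoA through mevalonate, squalene and lanosterol. SREBP-2, encoded by Srebf2, is a membrane-bound transcription factor that is released when sterols are low and activates the sterol genes, and INSIG1 holds it back when sterols are high. SREBP-1, encoded by Srebf1, is best known for activating fatty acid synthesis genes in liver, where thyroid hormone also raises several of them, among them Thrsp and Me1.

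Totals ran from 30791885 to 78913915 reads per library. Summed cardiomyocyte markers (6 of 6 genes tested) lay between 20654 and 22657 CPM (counts scaled to library size with TMM factors) in saline of set B. There they lay between 20302 and 23348 in PRO, 19803 and 21300 in PTU, and 18204 and 20070 in PTU+PRO. In set A they lay between 25109 and 26472 CPM in saline, 29817 and 37755 in PHE, and 27633 and 33140 in PHE+PRO. In PTU+PHE they lay between 37541 and 40714, and in PTU+PHE+PRO between 29391 and 44439. Tnnt2 and Myl2 make up most of each sum. In set A, Myl2 ran from 6808 to 7535 CPM in saline and from 16035 to 19563 in PTU+PHE. PTU+PHE hearts also lay above saline for Tnnt2, Actn2 and Pln. They lay below it for Ryr2 (515 to 681 CPM against 1934 to 2314) and Tnni3 (2667 to 3302 against 3400 to 3839). Of the 6, PHE and PTU+PHE each called 3 higher and 1 lower, PHE+PRO 1 higher, and PTU+PHE+PRO 2 higher and 2 lower. PTU and PTU+PRO in set B each called 0 higher and 2 lower. Of all genes tested, 14.8% were called in either direction in PHE, 5.59% in PHE+PRO, 53.4% in PTU+PHE and 54.7% in PTU+PHE+PRO. In set B the shares were 29.4% in PTU and 35.9% in PTU+PRO. The part of the cardiomyocyte markers in the results was not tested. Among genes outside the 30, the thyroid hormone targets Hr and Klf9 fell in each of the 4 PTU groups, with log2 fold changes between -4.51 and -3.39 (edgeR quasi-likelihood test, highest adjusted p 6e-08). In the PTU+PHE+PRO group, heart 1 was more than 0.25 above its group mean on the log2 scale for 14 of the 30 genes, and heart 2 was more than 0.25 below it for 14. Calls of that group that rest on heart 1 are named where they occur. By Xist and Y-linked reads, heart 1 of PTU+PHE+PRO was female and its hearts 2 and 3 male. Sex was not balanced between groups: all PHE hearts were male, while saline of set A held both sexes. The header of the count table gives PHE+PRO heart 2 to a pair of columns, here called 2a and 2b.

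Promoters of 4 of the genes are shown so that genes of unlike response can be set side by side: Hmgcs1, a sterol gene with no call in any comparison with saline, Lss and Fasn, which were higher in all PTU groups, and Thrsp, which was lower in all of them. Each line gives the 200 bases before the RefSeq transcription start (GRCm38.p6), read along the gene's strand. Capitals mark TCACNCCAC, a sterol regulatory element, and CCAAT, the NF-Y box, which reads ATTGG on the other strand.
Hmgcs1 (chr13:119690151-119690350, plus strand): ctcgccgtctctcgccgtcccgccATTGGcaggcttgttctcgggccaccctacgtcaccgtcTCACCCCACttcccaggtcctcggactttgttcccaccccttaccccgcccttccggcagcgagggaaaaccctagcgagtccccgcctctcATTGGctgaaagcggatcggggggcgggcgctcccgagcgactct
Lss (chr10:76531405-76531604, plus strand): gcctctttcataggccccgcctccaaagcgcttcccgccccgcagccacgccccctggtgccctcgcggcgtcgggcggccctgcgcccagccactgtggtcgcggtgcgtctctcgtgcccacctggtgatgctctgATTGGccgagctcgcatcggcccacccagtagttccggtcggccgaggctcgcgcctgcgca
Fasn (chr11:120824548-120824747, minus strand): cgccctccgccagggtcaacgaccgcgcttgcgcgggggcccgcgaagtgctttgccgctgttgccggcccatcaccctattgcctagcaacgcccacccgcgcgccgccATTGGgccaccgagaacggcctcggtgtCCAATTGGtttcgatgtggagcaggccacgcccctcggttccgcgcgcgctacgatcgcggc
Thrsp (chr7:97417551-97417750, minus strand): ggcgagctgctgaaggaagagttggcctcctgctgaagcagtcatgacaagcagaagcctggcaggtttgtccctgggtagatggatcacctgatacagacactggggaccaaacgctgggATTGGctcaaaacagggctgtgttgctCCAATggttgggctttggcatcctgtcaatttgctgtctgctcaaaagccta

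RefSeq promoters of 300 bases (250 before the start and 50 after) matched 24 of the 30 genes. CCAAT, searched on both strands, stood in 22 of the 24, against 41.9% of the tested genes with a promoter. In Fasn the CCAAT and ATTGG at its downstream position overlap. TCACNCCAC stood in 1 of the 24, Hmgcs1, against 1.45% of tested genes. GGGCGG, the Sp1 box, stood in 19 of the 24, against 63.2% of tested genes. The nuclear receptor motif AGGTCA stood in 5 and the E-box CACGTG in 4, against 15.5% and 10.9%. These are letter matches in short windows, and a missing match says only that the letters are not there.

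Levels differed widely between the genes in saline hearts. Per kilobase of exon, Scd2 had the highest level, 22.0 ± 4.68 CPM per kb (SD, n = 6 saline hearts), followed by Me1 with 18.5 ± 2.78 and Hmgcs1 with 11.98 ± 0.55. Acly, at 11.9 ± 0.36 CPM per kb, did not differ from Hmgcs1 beyond the spread. The lowest were Lss with 0.383 ± 0.0247 and Elovl6 with 0.34 ± 0.0629 CPM per kb. Lengths are the union of all annotated exons, which lowers the value of genes with long rare exons. Between the saline groups of the sets, 1 of the 30 genes was called: Acaca was higher in set A by 0.46 ± 0.12 on the log2 scale (adjusted p = 0.02), against 1.45% of all genes called higher and 4.26% called in either direction.

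**Figure D1:**
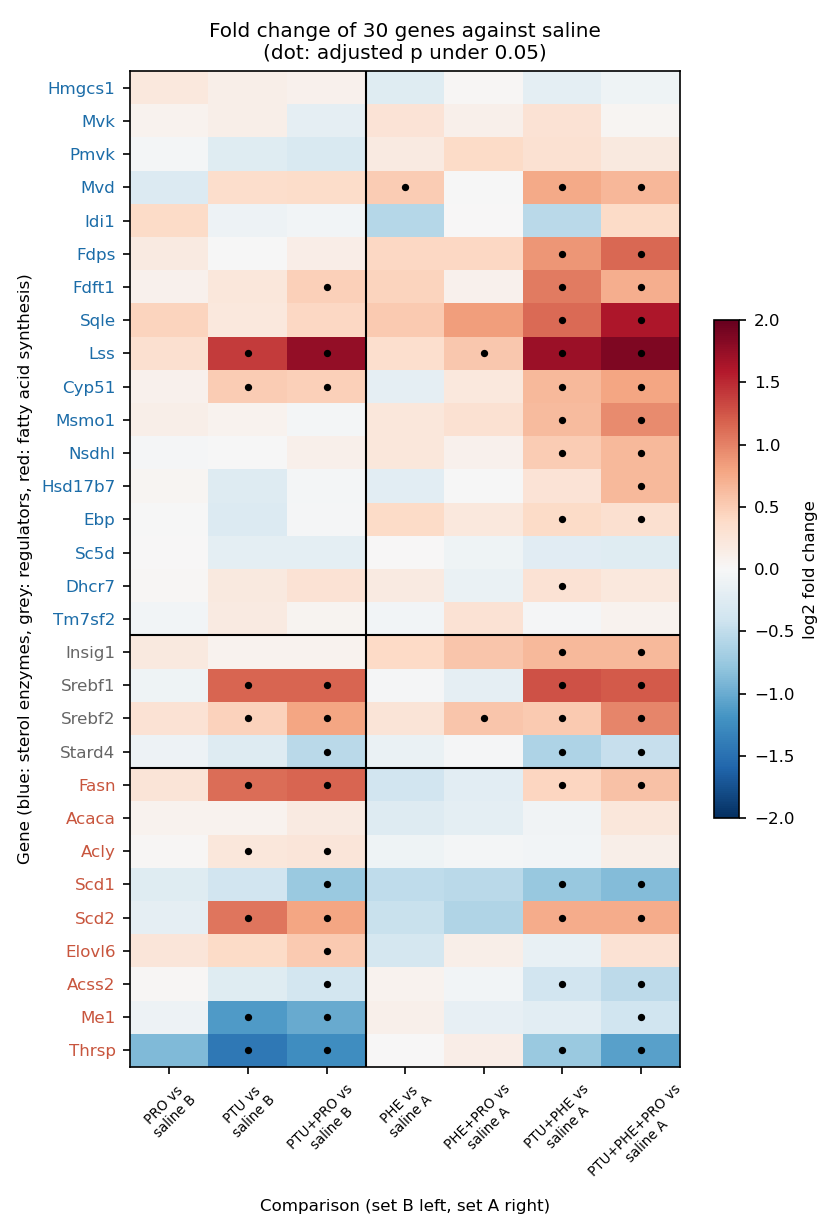
Log2 fold change (colour) of the 30 genes (rows) against saline of the same set in 7 treated groups (columns, n = 3 hearts per group), with a dot where the adjusted p was under 0.05. Dots cluster in the 4 PTU columns, and no sterol enzyme was called lower in any column.

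Lss and Cyp51 rose in all 4 PTU groups, while Hmgcs1, Mvk, Pmvk, Idi1, Sc5d and Tm7sf2 passed the test in none. Called genes act both before squalene (Mvd, Fdps, Fdft1) and after it. Idi1 had few reads, from 40 to 272 per library. In set B, PTU alone raised Lss and Cyp51 among the 17 sterol enzymes, and PTU+PRO raised Lss, Cyp51 and Fdft1. These shares of the 17, 11.8% and 17.6%, were not above the 14.3% and 17.7% of all genes called higher. In set A, PTU+PHE raised 10 of the 17 against saline and PTU+PHE+PRO raised 10. That was 58.8% in each, against 28.2% and 28.7% of all genes. Over all 30 genes, PTU called 7 higher and 2 lower, against 14.3% and 15.1% of all genes (29.4% in either direction). PTU+PRO called 9 higher and 5 lower, against 17.7% and 18.1% (35.9%). PTU+PHE called 15 higher and 4 lower, against 28.2% and 25.2% (53.4%). PTU+PHE+PRO called 15 higher and 5 lower, against 28.7% and 26% (54.7%). The median log2 fold change of the sterol enzymes was 0.11 under PTU, 0.09 under PTU+PRO, 0.38 under PTU+PHE and 0.64 under PTU+PHE+PRO, beside medians of 0.01 to 0.04 for all genes tested.

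Lss, lanosterol synthase, closes the sterol ring and showed the largest rise of the sterol enzymes in each PTU group. In set B its level was 3.74, 4.11 and 4.50 CPM in saline, 4.96, 4.88 and 5.52 in PRO, 10.4, 10.9 and 11.1 in PTU, and 14.5, 14.2 and 13.1 in PTU+PRO. In set A it was 4.02, 4.35 and 4.05 CPM in saline, 5.76, 4.50 and 5.35 in PHE, 5.54, 6.30 and 6.15 in PHE+PRO, 14.9, 13.4 and 12.5 in PTU+PHE, and 16.2, 12.8 and 16.3 in PTU+PHE+PRO. Every PTU heart lay above every heart without PTU. The log2 fold change against saline was 1.39 ± 0.12 (SE) for PTU (adjusted p = 2.7e-09), 1.76 for PTU+PRO, 1.71 for PTU+PHE and 1.87 for PTU+PHE+PRO. PTU added to PHE gave 1.38 ± 0.12, and PTU added to PRO gave 1.44 ± 0.12.

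Sqle, squalene epoxidase, makes the substrate of LSS. Its level in set B was 2.53, 4.41 and 2.67 CPM in saline, 4.75, 3.95 and 4.39 in PRO, 3.84, 3.62 and 3.66 in PTU, and 4.29, 5.19 and 3.29 in PTU+PRO. The hearts of set A were at 2.62, 3.995 and 2.51 CPM in saline, 3.62, 4.06 and 5.42 in PHE, 5.91, 4.16 and 6.15 in PHE+PRO, 7.13, 6.34 and 6.63 in PTU+PHE, and 13.8, 5.08 and 9.15 in PTU+PHE+PRO. PTU and saline hearts overlapped in set B, while in set A both PTU groups lay above saline. The log2 fold change was 1.14 ± 0.28 for PTU+PHE (adjusted p = 0.0014) and 1.62 ± 0.28 for PTU+PHE+PRO (adjusted p = 3.3e-05). For PTU alone it was 0.22 ± 0.28 (adjusted p = 0.61).

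Hmgcs1, which makes HMG-CoA at the start of the pathway, did not pass the test in any treated group. Its level in set B was 53.3, 57.1 and 51.6 CPM in saline, 59.1, 62.5 and 66.6 in PRO, 55.2, 61.9 and 57.7 in PTU, and 54.5, 60.6 and 57.1 in PTU+PRO. The hearts of set A were at 54.9, 58.6 and 54.7 CPM in saline, 52.2, 47.0 and 43.7 in PHE, 62.9, 45.2 and 63.9 in PHE+PRO, 48.2, 52.4 and 46.1 in PTU+PHE, and 70.3, 33.2 and 54.7 in PTU+PHE+PRO. The widest spread was in the last group. Its fold changes ran from -0.24 ± 0.16 in PHE (adjusted p = 0.33) to 0.22 ± 0.16 in PRO (adjusted p = 0.85) on the log2 scale.

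The other sterol enzymes are named here after their values were seen. Mvk, Pmvk and Idi1, which carry mevalonate to isoprenoid units, were not called in any of the 7 comparisons, nor were Sc5d and Tm7sf2 of the late steps. Mvd, which decarboxylates the mevalonate product, rose by 0.76 ± 0.15 in PTU+PHE and 0.66 ± 0.15 in PTU+PHE+PRO. Fdps, which makes farnesyl diphosphate, rose by 0.88 ± 0.15 and 1.14 ± 0.16, and Fdft1, squalene synthase, by 1.03 ± 0.17 and 0.73 ± 0.17. Cyp51, lanosterol demethylase, rose in all 4 PTU groups, by 0.51 in PTU, 0.47 in PTU+PRO, 0.66 in PTU+PHE and 0.80 in PTU+PHE+PRO. Its calls in set B were lost without saline heart 1 or saline heart 2, and that in PTU+PRO also without PTU+PRO heart 2. Msmo1 and Nsdhl, which act after it, rose in both PTU groups of set A, by 0.50 to 0.94. Ebp was called in both, Dhcr7 in PTU+PHE and Hsd17b7 in PTU+PHE+PRO. Dhcr7 in PTU+PHE (adjusted p = 0.047) and Ebp in PTU+PHE+PRO (adjusted p = 0.047) were each lost in 10 alternatives, DESeq2 among them. Ebp in PTU+PHE was lost in 7, and Hsd17b7 in PTU+PHE+PRO without saline heart 1 of set A or without its own heart 3. The call of Fdft1 in PTU+PRO was lost in 3.

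Against PHE in place of saline, PTU+PHE raised 6 of the 17 sterol enzymes (Fdps, Fdft1, Lss, Cyp51, Msmo1 and Nsdhl), against 18.2% of all genes. Mvd, Sqle, Ebp and Dhcr7 were not called there. Against PHE+PRO, PTU+PHE+PRO raised 10 of the 17, against 24.7%. The larger number of sterol calls with PHE than without it was not matched by a test of the difference. PTU+PHE against PHE, minus PTU against saline in set B, called 0 of the 17 sterol enzymes in edgeR, with 2 at an unadjusted p under 0.05 (Fdps 0.47 ± 0.22 and Hsd17b7 0.73 ± 0.29). DESeq2 called 1 of the 30 genes in this contrast, which was Me1. The median of that difference over the 17 was 0.27, beside 0.02 for all genes. This contrast spans both sequencing sets. Added to PHE, PTU called 9 of the 30 genes higher and 3 lower, against 18.2% and 18.6% of all genes (36.8%). Added to PHE+PRO, it called 15 higher and 3 lower, against 24.7% and 22.3% (47%). Added to PRO, it called 7 higher and 3 lower, against 15% and 15.2% (30.2%).

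**Figure D2:**
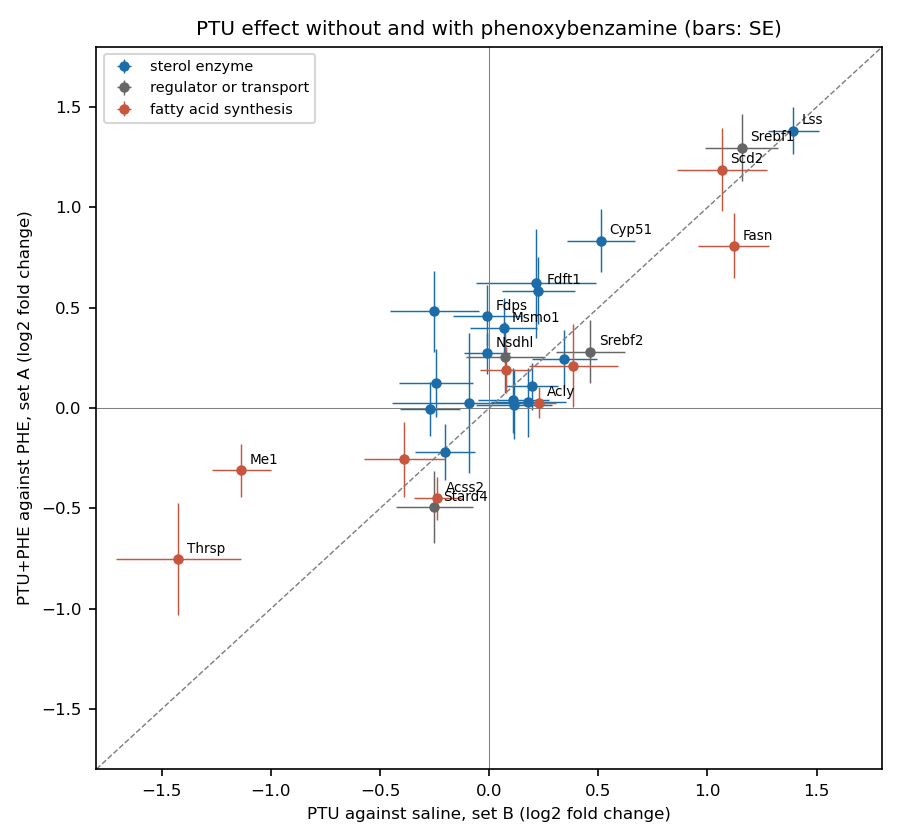
Log2 fold change of the 30 genes for PTU against saline in set B (x axis) and for PTU+PHE against PHE in set A (y axis), with SE bars and a dashed line of equal values; genes called in either are named. Lss, Srebf1 and Scd2 lie above 1 on both axes, and Me1 lies at -1.14 on the x axis and -0.31 on the y axis.

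Other cell markers also moved, not all in the same groups as the sterol enzymes, and their part in these results was not tested. The summed level of 6 proliferation markers ran from 40.1 to 90.0 CPM in saline of set A, 189 to 191 in PTU+PHE and 187 to 266 in PTU+PHE+PRO, and all 6 rose in both. In set B it ran from 34.1 to 73.4 CPM in saline and 72.1 to 78.1 in PTU, where 0 of 6 were called, and 68.5 to 104 in PTU+PRO, where 3 were. All 6 macrophage markers fell in every PTU group, their sum going from 171 to 193 CPM in saline of set A to 76.2 to 99.5 in PTU+PHE, and from 152 to 173 in saline of set B to 71.5 to 77.6 in PTU. All 4 neutrophil markers rose in each PHE group. All 5 endothelial markers fell in PTU+PHE and PTU+PHE+PRO, 3 fell in PTU and 4 in PTU+PRO. Their sum ran from 1364 to 1401 CPM in saline of set A, 758 to 972 in PTU+PHE and 734 to 912 in PTU+PHE+PRO, and from 1352 to 1370 in saline of set B, 1096 to 1178 in PTU and 936 to 1041 in PTU+PRO. In the PTU effect under PHE minus that without it, 2 of the 5 endothelial markers were called lower and 5 had an unadjusted p under 0.05. Of all genes, 2.69% were called lower there. Of 5 fibroblast markers, 4 fell in PTU+PHE and 3 in PTU+PHE+PRO, while 2 fell and 1 rose in PTU and 3 fell and 1 rose in PTU+PRO. The shares of all genes called lower were 25.2% in PTU+PHE, 26% in PTU+PHE+PRO, 15.1% in PTU and 18.1% in PTU+PRO. Those called higher were 28.2%, 28.7%, 14.3% and 17.7%, with 8.14% in PHE and 2.51% in PHE+PRO. In whole hearts, fewer cells of a type and less RNA per cell cannot be told apart.

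Among the regulators, Srebf1 rose in all 4 PTU groups. In set B its level was 49.2, 43.6 and 60.9 CPM in saline, 40.6, 56.2 and 48.2 in PRO, 104, 118 and 121 in PTU, and 108, 109 and 127 in PTU+PRO. In set A it was 44.7, 40.5 and 55.0 CPM in saline, 52.1, 41.3 and 43.8 in PHE, 39.8, 43.1 and 41.6 in PHE+PRO, 122, 102 and 113 in PTU+PHE, and 148, 89.1 and 90.0 in PTU+PHE+PRO. PTU and non-PTU hearts did not overlap. The log2 fold changes were 1.16 ± 0.17 for PTU, 1.16 for PTU+PRO, 1.27 for PTU+PHE and 1.22 for PTU+PHE+PRO (highest adjusted p 9.2e-06).

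Srebf2 rose less. In set B its level was 36.4, 43.9 and 34.6 CPM in saline, 44.8, 43.3 and 51.8 in PRO, 50.7, 55.8 and 52.0 in PTU, and 65.8, 64.5 and 68.5 in PTU+PRO. The hearts of set A were at 30.8, 37.8 and 30.4 CPM in saline, 40.5, 39.8 and 37.3 in PHE, 48.6, 45.5 and 50.9 in PHE+PRO, 49.9, 48.3 and 44.7 in PTU+PHE, and 88.6, 42.4 and 62.5 in PTU+PHE+PRO. All 4 PTU groups lay above their saline group, as did PHE+PRO in set A. PTU added to PHE did not call Srebf2. The log2 fold change was 0.46 ± 0.16 for PTU (adjusted p = 0.027, a call lost in 5 alternatives), 0.79 for PTU+PRO, 0.53 for PTU+PHE and 0.97 for PTU+PHE+PRO.

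Insig1, a target of SREBP that retains it in the endoplasmic reticulum, was called in the PTU groups of set A. There its level was 9.98, 10.1 and 11.7 CPM in saline, 13.8, 16.4 and 11.6 in PHE, 15.7, 13.3 and 17.6 in PHE+PRO, 17.4, 16.6 and 15.9 in PTU+PHE, and 20.6, 10.2 and 18.7 in PTU+PHE+PRO. In set B it was 10.6, 10.2 and 10.8 CPM in saline, 11.9, 11.1 and 13.0 in PRO, 9.22, 13.2 and 10.8 in PTU, and 11.7, 9.98 and 11.4 in PTU+PRO, and neither PTU group was called. In set A, PHE+PRO hearts also lay above saline for Insig1, without a call, and PHE hearts overlapped it. PTU added to PHE did not call Insig1. Heart 2 of PTU+PHE+PRO lay within the saline range. The log2 fold change was 0.65 ± 0.18 for PTU+PHE (adjusted p = 0.004) and 0.64 ± 0.18 for PTU+PHE+PRO (adjusted p = 0.0041). Stard4, a sterol carrier, fell instead, by 0.54 in PTU+PRO, 0.62 in PTU+PHE and 0.46 in PTU+PHE+PRO on the log2 scale. Its call in PTU+PHE+PRO was lost without saline heart 2, without PTU+PHE+PRO heart 2 and when set A was fitted by itself, and that in PTU+PRO without saline heart 2 or PTU+PRO heart 3.

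**Figure D3:**
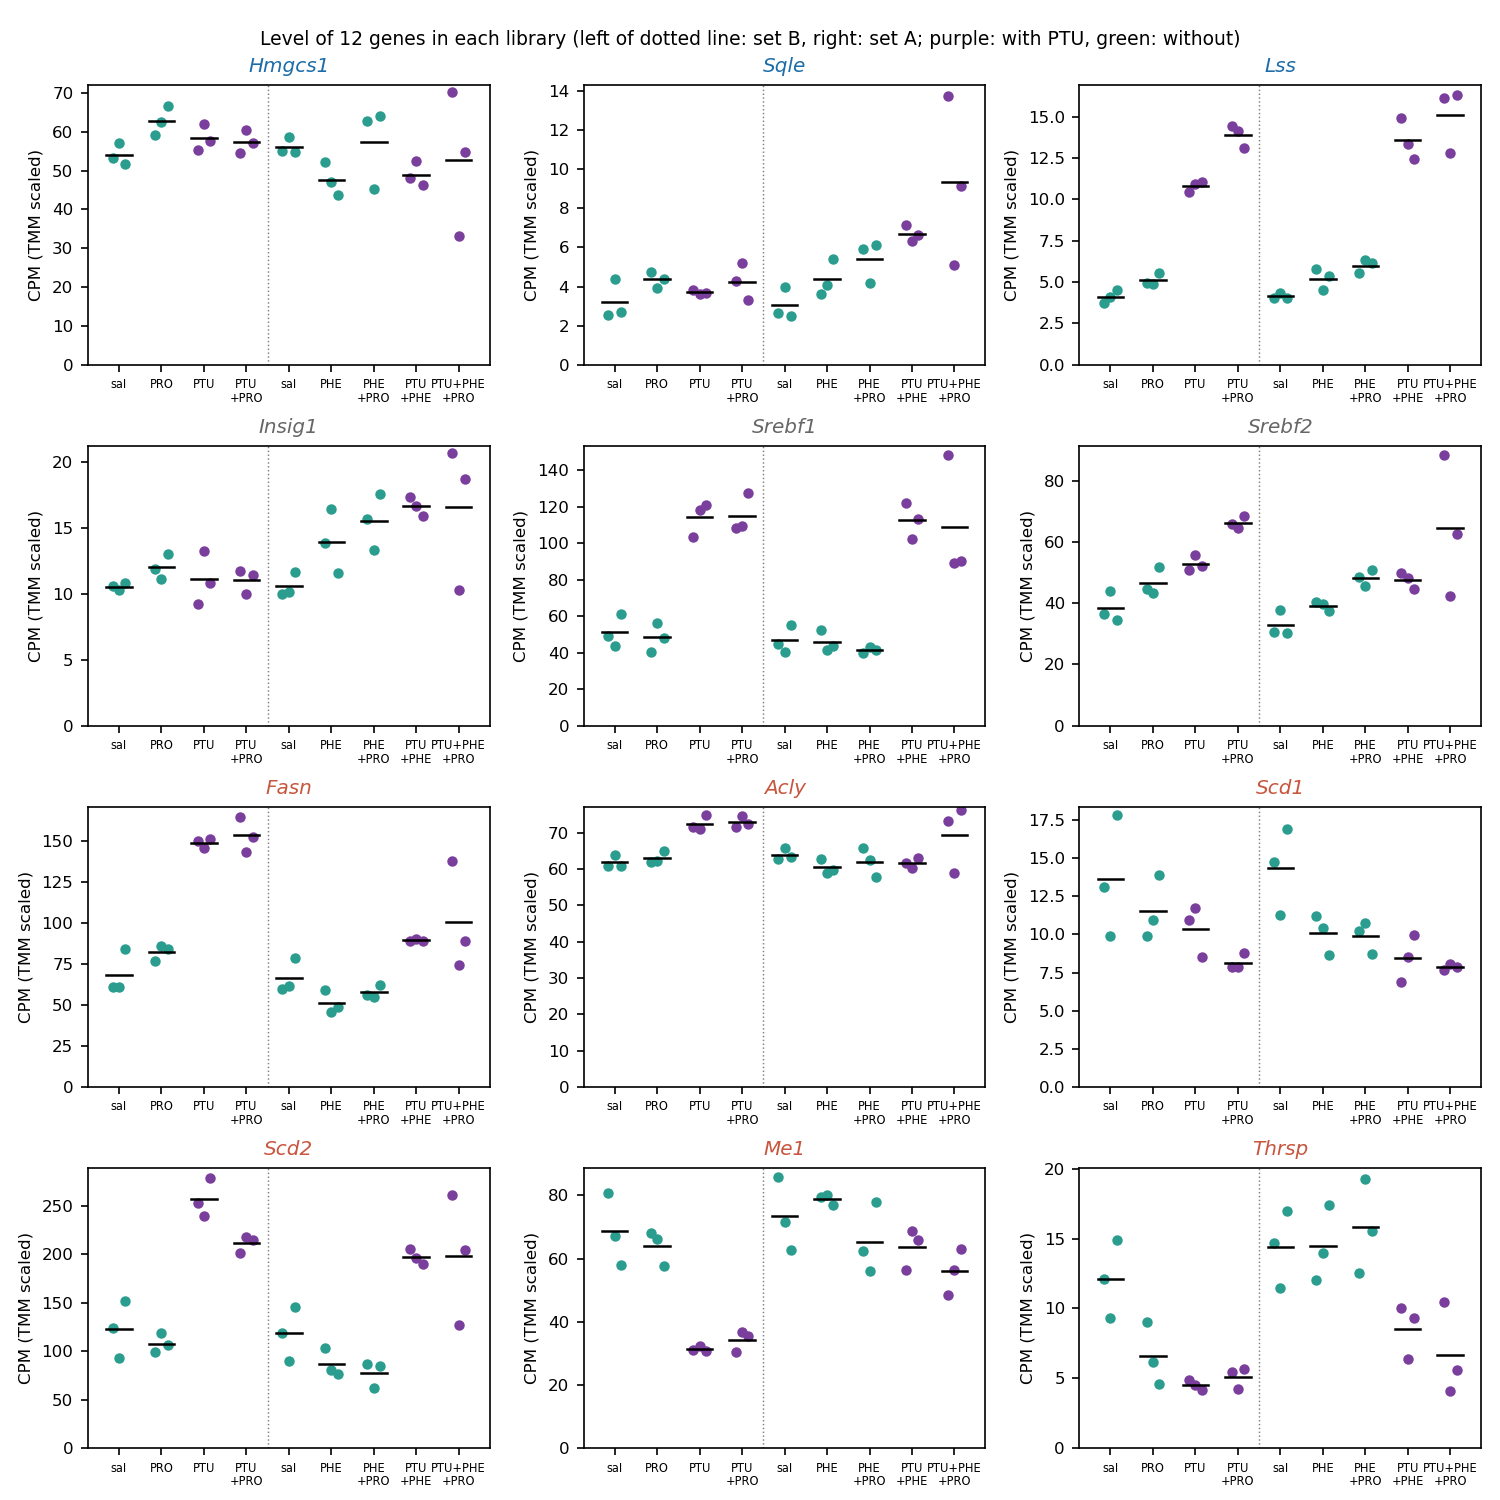
Level (CPM with TMM scaling, linear axis from 0) of 12 genes in each of the 27 hearts by group, with dots for hearts and a bar for the group mean; PTU groups are purple. Srebf1 and Lss are higher in all PTU hearts, Me1 is at 30.6 to 32.2 CPM in PTU of set B and 56.5 to 68.7 CPM in PTU+PHE of set A.

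Among the fatty acid genes, Fasn and Scd2 rose in all 4 PTU groups, and Thrsp fell in all 4. Of the 9 genes, PTU raised 3 and lowered 2, PTU+PRO raised 4 and lowered 4, PTU+PHE raised 2 and lowered 3, and PTU+PHE+PRO raised 2 and lowered 4. The share of the 9 called in either direction was 55.6% in PTU against 29.4% of all genes, 88.9% against 35.9% in PTU+PRO, 55.6% against 53.4% in PTU+PHE and 66.7% against 54.7% in PTU+PHE+PRO, so that in PTU+PHE it was near the background. Acaca, acetyl-CoA carboxylase, was called in none of the 7 comparisons with saline, though PTU added to PHE+PRO raised it by 0.42 ± 0.12 (adjusted p = 0.0053). Elovl6, a fatty acid elongase, was called in PTU+PRO alone (0.52 ± 0.20, adjusted p = 0.048), a call lost in 7 alternatives.

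Fasn, fatty acid synthase, had in set B a level of 60.6, 60.8 and 84.0 CPM in saline, 76.6, 85.6 and 84.2 in PRO, 149.9, 146 and 151 in PTU, and 165, 143 and 152 in PTU+PRO. The hearts of set A were at 60.0, 61.2 and 78.8 CPM in saline, 59.1, 45.5 and 48.6 in PHE, 56.0, 54.9 and 62.1 in PHE+PRO, 89.2, 90.4 and 88.9 in PTU+PHE, and 138, 74.1 and 89.2 in PTU+PHE+PRO. PTU and saline hearts were apart in set B and in PTU+PHE, and overlapped in PTU+PHE+PRO. The log2 fold change was 1.12 ± 0.16 for PTU (adjusted p = 9.9e-06), 1.16 for PTU+PRO, 0.42 ± 0.16 for PTU+PHE (adjusted p = 0.03) and 0.59 ± 0.16 for PTU+PHE+PRO (adjusted p = 0.0035). The call in PTU+PHE was lost in 8 alternatives, among them the fit of set A alone and leaving out any 1 of its hearts. Without heart 1 of PTU+PHE+PRO the last value was 0.28 (adjusted p = 0.082). Against PHE alone, PTU+PHE was higher by 0.81 ± 0.16.

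Scd2 and Scd1, both stearoyl-CoA desaturases, moved in opposite directions. Scd2, singled out after its values were seen, rose by 1.07 ± 0.205 in PTU, 0.78 in PTU+PRO, 0.74 in PTU+PHE and 0.74 in PTU+PHE+PRO, the last falling to 0.48 (adjusted p = 0.051) without heart 1. Scd1 had levels of 13.1, 9.87 and 17.8 CPM in saline of set B, 9.90, 10.9 and 13.9 in PRO, 10.9, 11.7 and 8.50 in PTU, and 7.85, 7.84 and 8.78 in PTU+PRO. In set A Scd1 was at 14.8, 11.3 and 16.9 CPM in saline, 11.2, 10.4 and 8.63 in PHE, 10.2, 10.8 and 8.72 in PHE+PRO, 6.90, 8.55 and 9.99 in PTU+PHE, and 7.63, 8.07 and 7.86 in PTU+PHE+PRO. Against saline, Scd1 fell by 0.74 ± 0.19 in PTU+PRO, 0.76 ± 0.19 in PTU+PHE and 0.87 ± 0.19 in PTU+PHE+PRO. Its value in PTU was -0.39 ± 0.19 (adjusted p = 0.12). PHE and PHE+PRO hearts also lay below saline of set A, without a call in edgeR, and PTU added to PHE did not call Scd1.

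Acly, ATP citrate lyase, supplies acetyl-CoA to both pathways and changed little. Its level in set B was 60.9, 64.0 and 60.8 CPM in saline, 62.0, 62.2 and 65.0 in PRO, 71.5, 71.0 and 75.0 in PTU, and 71.7, 74.6 and 72.4 in PTU+PRO. The hearts of set A were at 62.9, 65.9 and 63.4 CPM in saline, 62.8, 59.0 and 59.9 in PHE, 65.7, 62.6 and 57.7 in PHE+PRO, 61.6, 60.2 and 63.2 in PTU+PHE, and 73.2, 58.9 and 76.3 in PTU+PHE+PRO. It rose by 0.23 ± 0.08 in PTU (adjusted p = 0.026) and 0.24 ± 0.08 in PTU+PRO (adjusted p = 0.018), calls lost in 7 and 4 alternatives. Acss2, which makes acetyl-CoA from acetate, fell by 0.36 in PTU+PRO, 0.39 in PTU+PHE and 0.53 in PTU+PHE+PRO.

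Me1, malic enzyme, makes NADPH for fatty acid synthesis. It was the 1 gene of the 30 called in the test of the PTU effect under PHE minus that without it. Its level in set B was 80.9, 67.1 and 58.1 CPM in saline, 68.2, 66.2 and 57.5 in PRO, 31.0, 32.2 and 30.6 in PTU, and 30.4, 36.7 and 35.5 in PTU+PRO. In set A it was 86.0, 71.7 and 62.8 CPM in saline, 79.7, 80.1 and 77.05 in PHE, 62.3, 55.9 and 77.9 in PHE+PRO, 56.5, 68.7 and 65.8 in PTU+PHE, and 48.6, 56.2 and 63.0 in PTU+PHE+PRO. Set B PTU hearts lay far below saline. PTU+PHE hearts overlapped saline of set A but lay below all PHE hearts, though PTU added to PHE did not call Me1. Me1 fell by 1.14 ± 0.13 in PTU (adjusted p = 5.5e-07) and 1.007 ± 0.13 in PTU+PRO (adjusted p = 2.1e-06). In PTU+PHE its value was -0.21 ± 0.13 (adjusted p = 0.19). In PTU+PHE+PRO it fell by 0.40 ± 0.13 (adjusted p = 0.015), and was at -0.31 (adjusted p = 0.074) without heart 1, and the call was also lost without saline heart 1. The PTU effect under PHE minus that without it was 0.825 ± 0.19 (adjusted p = 0.017), with 1.4% of all genes called higher in this contrast, 2.69% lower and 4.1% in either direction. The call was lost without PTU+PHE heart 2 or without saline heart 1 of set B (highest adjusted p 0.063). PHE and the set cannot be told apart in it.

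Thrsp (Spot 14), a thyroid hormone target in liver, fell in all 4 PTU groups. In set B its level was 12.1, 9.32 and 14.9 CPM in saline, 9.004, 6.16 and 4.62 in PRO, 4.87, 4.49 and 4.18 in PTU, and 5.44, 4.24 and 5.66 in PTU+PRO. In set A it was 14.7, 11.5 and 16.98 CPM in saline, 12.03, 14.0 and 17.4 in PHE, 12.5, 19.3 and 15.6 in PHE+PRO, 10.0, 6.37 and 9.30 in PTU+PHE, and 10.4, 4.05 and 5.57 in PTU+PHE+PRO. All PTU hearts lay below the saline hearts of their set. The log2 fold change was -1.42 ± 0.29 for PTU (adjusted p = 0.00051), -1.25 for PTU+PRO, -0.75 ± 0.28 for PTU+PHE (adjusted p = 0.028) and -1.09 for PTU+PHE+PRO. The call in PTU+PHE was lost with no filter, without saline heart 3 and without PTU+PHE heart 2. PRO hearts were also below saline, at -0.88 ± 0.28, which did not pass the test (adjusted p = 0.26).

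Of 9 adipocyte markers, 7 were tested and 5 were higher in saline of set A than in saline of set B, against 1.45% of all genes. The sum of all 9 ran from 585 to 647 CPM in saline of set A and from 498 to 531 in saline of set B. Cidea and Fabp4 make up most of it, and were left out of a second sum after their values were seen. The summed level of the other 7 markers (Adipoq, Plin1, Cidec, Lep, Retn, Cfd and Ucp1) ran from 1.74 to 17.3 CPM in set A, highest in PHE+PRO 2a, and from 0.015 to 0.162 CPM in set B. Of the 9 fatty acid genes, 1 (Acaca) was called between the saline groups. The part of adipocyte RNA in the results of set A was not tested.

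The adrenergic blockers without PTU brought few of these genes to a call. The median log2 fold change of the 17 sterol enzymes was 0.23 in PHE, 0.10 in PHE+PRO and 0.075 in PRO. That of the 9 fatty acid genes was -0.26, -0.17 and 0.02, beside 0.013, 0.013 and -0.002 for all genes tested. PHE raised 1 of the 30, Mvd (0.51 ± 0.15, adjusted p = 0.027), against 8.14% of all genes called higher. It lowered 0, against 6.64% (14.8% in either direction), and 11 had an unadjusted p under 0.05. DESeq2 called 3 higher and 1 lower, beside 1910 and 1716 of 17929 genes. PHE+PRO raised 2, Lss (0.53 ± 0.12, adjusted p = 0.01) and Srebf2 (0.55 ± 0.16, adjusted p = 0.041), against 2.51%. It lowered 0, against 3.09% (5.59%), and 8 had an unadjusted p under 0.05. There DESeq2 called more than 2 higher and 1 lower, beside 721 and 1022 of 17929 genes. Sqle was at 0.83 ± 0.28 in PHE+PRO (adjusted p = 0.078). PRO called 0 of the 30, against 0.167% higher and 0.105% lower (0.272%), with 2 at an unadjusted p under 0.05 in edgeR and 0 in DESeq2. The calls in PHE and PHE+PRO were lost in the fit of set A alone. The all-gene counts also moved there: under PHE, 1557 genes were called higher and 1270 lower in the fit of all libraries, 34 and 44 in the fit of set A alone, and 136 and 260 without PHE heart 3. Under PHE+PRO they were 479 and 590, 71 and 92 in the fit of set A alone, and 117 and 135 without heart 2a.

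PRO added to PHE lowered 1 gene, Mvd, by 0.52 ± 0.15 (adjusted p = 0.038), against 2.71% of all genes, with 3.1% higher and 5.82% in either direction. PRO added to PTU+PHE called 0 of the 30, against 1.51% of all genes higher, 1.36% lower and 2.87% in either direction, with 5 at an unadjusted p under 0.05 and 0 in DESeq2. PRO added to PTU called 0, against 0.288%, 0.356% and 0.643%, with 2 at an unadjusted p under 0.05 and 1 in DESeq2. The interaction of PTU and PRO called 0 of the 30 in set B, against 0.0105%, 0.00523% and 0.0157%, and 0 under PHE in set A, against 0.471%, 0.575% and 1.05%, each with 1 at an unadjusted p under 0.05 in edgeR and 0 in DESeq2.

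The balance of the branches was described by the mean log2(CPM + 1) of the 17 sterol enzymes minus that of the 9 fatty acid genes. It was -1.65 ± 0.15 (SD, n = 3) in saline of set A, -1.34 ± 0.07 in PHE, -1.33 ± 0.06 in PHE+PRO, -1.14 ± 0.026 in PTU+PHE and -1.07 ± 0.055 in PTU+PHE+PRO. In set B it was -1.62 ± 0.15 in saline, -1.47 ± 0.05 in PRO, -1.49 ± 0.02 in PTU and -1.42 ± 0.06 in PTU+PRO. The sterol mean was 3.59 ± 0.065 in PTU+PHE against 3.18 ± 0.04 in saline, while the fatty acid mean was 4.73 ± 0.06 against 4.84 ± 0.11. With the median over genes, the change against saline was 0.137 in place of 0.316 in PHE, 0.141 in place of 0.323 in PHE+PRO, 0.824 in place of 0.519 in PTU+PHE and 1.021 in place of 0.582 in PTU+PHE+PRO. In set B it was -0.04 in place of 0.149 in PRO, 0.444 in place of 0.133 in PTU and 0.437 in place of 0.208 in PTU+PRO.

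**Figure D4:**
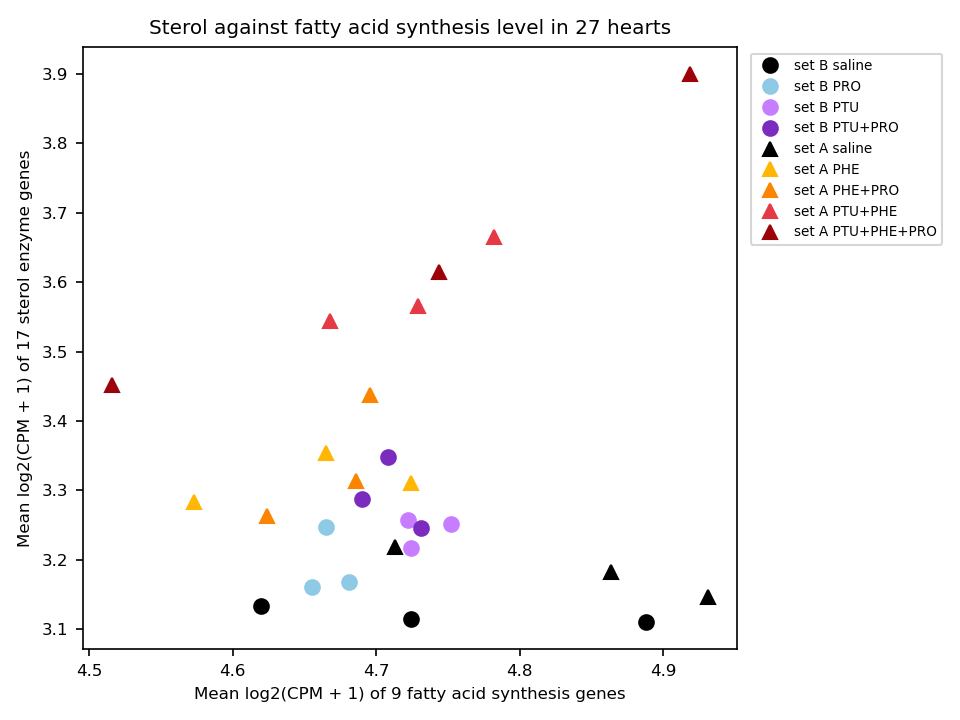
Mean log2(CPM + 1) of the 9 fatty acid synthesis genes (x axis) and of the 17 sterol enzymes (y axis) in each of 27 hearts; triangles are set A and circles set B. PTU+PHE and PTU+PHE+PRO hearts lie between 3.45 and 3.90 on the y axis, and saline hearts between 3.11 and 3.22.

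Of a list of 33 other genes of the same pathways, more were called lower than higher in each PTU group. The share called in either direction was 42.4% in PTU against 29.4% of all genes, 51.5% against 35.9% in PTU+PRO, 69.7% against 53.4% in PTU+PHE, 75.8% against 54.7% in PTU+PHE+PRO, 18.2% against 14.8% in PHE and 18.2% against 5.59% in PHE+PRO. PTU raised 3 and lowered 11 of them, against 14.3% and 15.1% of all genes, with Slc25a1, the mitochondrial citrate carrier, at 0.55 and Aacs, acetoacetyl-CoA synthetase, at 0.46, and Mlxipl, the carbohydrate-responsive factor ChREBP, at -2.62 and Dgat2, a triglyceride-forming acyltransferase, at -1.94. PTU+PRO raised 5 and lowered 12, led by Scd4 at 1.84 and Slc25a1 at 0.58, and by Mlxipl at -2.42 and Dgat2 at -1.36. PTU+PHE raised 9 and lowered 14, led by Scd4 at 1.66 and Slc25a1 at 1.00, and by Mlxipl at -2.59 and Gpam, a glycerol phosphate acyltransferase, at -2.41. PTU+PHE+PRO raised 9 and lowered 16, led by Scd4 at 1.97, and by Lpin1, a phosphatidate phosphatase, at -2.76 and Gpam at -2.61. PHE raised 1 and lowered 5, with Slc25a1 at 0.52, Abca1, a cholesterol exporter, at -0.93 and Gpam at -0.92. PHE+PRO raised 1 and lowered 5, with Mlxipl at 0.83, Gpam at -1.32 and Abca1 at -1.15. PRO called 0 of the 33 in edgeR, with 5 at an unadjusted p under 0.05.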

How the data were processed

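The deposited table holds raw counts per gene. Per the submitters' processing notes, the authors used cutadapt 1.9, STAR 2.5.2b, featureCounts 1.5.1 and genome build mm10, and per the labels' protocols RNA was extracted with Trizol for the TruSeq RNA kit v2. Annotation release, strand setting and the treatment of reads mapping to several places are not given in the sources used here. Symbols, exon lengths and promoters come from GENCODE vM21 and RefSeq of GRCm38.

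Counts were filtered with filterByExpr (minimum count 10, minimum total 15), scaled by TMM and fitted in edgeR 4.0.16 (R 4.3.3) by 1 quasi-likelihood model with 9 group means over 27 libraries (18 residual degrees of freedom, prior count 0.125). A gene was called at a two-sided Benjamini-Hochberg adjusted p under 0.05 over 19119 genes. SE is the log2 fold change divided by the square root of F. The fit was tested on simulated data: it missed the first criterion set for it, which was then replaced by one on genes with more reads, and it recovered fewer of the changed genes with few reads, so a missing call says less for Idi1 and Elovl6. Alternatives were DESeq2 1.42.0, RLE factors, no filter, 1 set alone, a replicate block, sex, transcript length and leaving out each library. The members and lists were chosen with earlier results of these data known. Values in every library are given for 10 genes, 1 for each step or role, and for any other called at a log2 fold change of 1 or more in at least 2 of the 7 comparisons with saline, which added Me1. The labels do not say whether hearts of a group came from separate litters, so p-values measure the spread between these hearts. Of the other pathway genes, those with the largest called changes in each direction are named, and 1 such value is not reported here.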

Additional observations from a re-analysis of the deposited data

Results flagged for a closer look

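These results are differences between effects of the same treatment that passed their own test (edgeR quasi-likelihood, adjusted over all genes). The PTU effect under PHE minus that without it was 0.825 for Me1, 1.045 for Dgat2, 1.402 for Acat2, which makes acetoacetyl-CoA, and -1.085 for Fads2, a fatty acid desaturase, all on the log2 scale. Dgat2 was at 40.5 to 47.8 CPM in PTU and 80.6 to 102 CPM in PTU+PHE, from 156 to 197 CPM in saline of set B and 149 to 195 CPM in PHE. Fads2 was at 8.14 to 8.93 CPM in PTU and 3.48 to 4.92 CPM in PTU+PHE, from 7.16 to 8.14 CPM in saline of set B and 8.01 to 9.14 CPM in PHE. Dgat2 and Fads2 passed in 18 of 18 alternatives. Me1 passed in 16, missing without PTU+PHE heart 2 or saline heart 1 of set B, and Acat2 in 12. These contrasts span both sets, so PHE and set cannot be told apart.

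Under PHE in set A, the PTU effect with PRO minus that without it was -1.545 for Lpin1 and 0.579 for Scarb1, a lipoprotein receptor. Lpin1 was at 86.3 to 111 CPM in PHE, 154 to 186 in PHE+PRO, 29.0 to 37.4 in PTU+PHE and 17.2 to 22.8 in PTU+PHE+PRO, and passed in 18 of 18 alternatives. Scarb1 passed in 8 of 18.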

How the results depend on the processing

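Of 65 called fold changes against saline, 42 kept their call in every alternative and 0 changed sign. Calls lost numbered 2 with RLE factors, 10 with no filter, 8 in the fit of 1 set, 8 with the replicate block, 3 with sex, 4 with transcript length and 2 with DESeq2. The cause of each change below was not tested. Under PHE the members called higher numbered 0 in the fit of 1 set and with the block and 3 in DESeq2, and those lower 1 with no filter and in DESeq2. Under PHE+PRO they numbered 0 in the fit of 1 set and 4 in DESeq2, and those lower 1 with no filter and in DESeq2. In the fit of 1 set, 6 were lower under PTU, 1 with PTU added to PHE and 6 with PTU added to PRO. PRO added to PHE lowered 0 with no filter, in the fit of 1 set and with transcript length, and PRO added to PTU raised 1 in the fit of 1 set and in DESeq2. Between the saline groups 0 were higher with no filter and with the block.

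The sterol level minus the fatty acid level, taken as a median over members, changed against saline by 0.137 in PHE, 0.141 in PHE+PRO, 0.824 in PTU+PHE, 1.021 in PTU+PHE+PRO, -0.04 in PRO, 0.444 in PTU and 0.437 in PTU+PRO.

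Leaving out 1 library gave these ranges of members called higher and lower. They were 0 to 1 and 0 to 1 for PHE, and 0 to 2 higher for PHE+PRO. For PTU+PHE they were 12 to 14 and 3 to 4, and for PTU+PHE+PRO 13 to 16 and 4 to 6. For PTU they were 4 to 7 and 2 to 3, and for PTU+PRO 5 to 8 and 4 to 5, the lowest counts higher being without saline heart 1. For PTU added to PHE they were 6 to 8 and 1 to 3, and for PTU added to PHE+PRO 11 to 17 and 2 to 5. Members lower ran from 0 to 1 for PRO added to PHE, and those higher from 0 to 5 and lower from 0 to 1 for PRO added to PTU+PHE, the 5 being without PTU+PHE+PRO heart 2. They ran from 0 to 1 lower for the PTU by PRO interaction under PHE, 0 to 1 higher for the PTU effect under PHE minus that without, and 0 to 1 higher between saline groups.

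Same-numbered hearts did not deviate together as a rule (13 of 40 pairs had r over 0.1, median r -0.088, range -0.438 to 0.471). Hearts of the same number can differ in sex, so these correlations cannot show whether the numbers pair hearts. The main fit did not pair them. With the replicate block, members called higher and lower were 12 and 4 for PTU+PHE, 14 and 5 for PTU+PHE+PRO, 5 and 2 for PTU, and 8 and 5 for PTU+PRO.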
